A study of Mus musculus with 2 samples.

Results

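Hypoxic tumor neutrophils were described here as 800 cells of 14022 that passed the cell limits in a single-cell RNA sequencing study of mouse pancreatic tumors. They were chosen by a gate, not by clustering. A droplet barcode had to hold at least 1000 unique molecular identifiers (UMIs, counted RNA molecules) and 200 genes, with at most 20% of UMIs from mitochondrial genes. At least 3% of its UMIs had to come from the neutrophil genes S100a8, S100a9, Csf3r, Cxcr2, Il1r2 and G0s2. Granule genes of immature cells (Camp, Ngp and Ltf) had to stay under 1%, Retnlg and Mmp8 of mature neutrophils under 0.3%, and 6 interferon-induced genes (Rsad2, Ifit3, Isg15, Gbp2, Isg20 and Slfn5) under 0.3%. At most 2 UMIs of Cd3e, Cd79a and C1qa, which mark T cells, B cells and macrophages, were allowed. Of the cells within these limits, called gated neutrophils here, members were those in which Hilpda, Bnip3, P4ha1 and Egln3 together made up at least 0.15% of UMIs. The PBS library gave 588 members among 1038 gated neutrophils, and the cmExoaCD11b library gave 212 among 520.

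The study asked how exosomes that carry Il-12 messenger RNA together with cGAMP, an activator of STING, and that bear an antibody to CD11b, a surface integrin of myeloid cells, act on the immune cells of pancreatic tumors. Male C57BL/6J mice, 5 to 6 weeks old on arrival, carried orthotopic tumors grown from K210 cells, a pancreatic tumor line from mice with Trp53fl/fl and Pdx1-Cre among their alleles. Control mice received PBS, and the treated mice received cmExoaCD11b intraperitoneally, dosed at 5 µg of cGAMP per mouse every 3 days from day 7, and immune cells from the tumors of 3 mice per treatment were pooled 48 h after treatment. Tumors from an injected cell line hold no stages before the tumor, and the other exosome preparations of the study are not in these 2 libraries. A pool of mice is 1 sample, so no difference has a replicate check, no test was made, and every interval below is a 95% interval that covers counting error only.

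When oxygen is scarce, prolyl hydroxylases stop marking the HIF alpha subunits for destruction by VHL, and HIF pairs with Arnt and binds promoters and enhancers at short sites with the core ACGTG or GCGTG. Its targets move cells toward glycolysis, remove mitochondria and feed back on the hydroxylases themselves. Neutrophils rely on glycolysis even in air, enter poorly perfused tumor regions and live longer in low oxygen. Of the rule genes, Hilpda encodes an inhibitor of lipolysis at lipid droplets, Bnip3 a receptor for the removal of mitochondria, P4ha1 a subunit of collagen prolyl 4-hydroxylase, and Egln3 a HIF prolyl hydroxylase.

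The 250 bases before the start of each rule gene are shown because the members were chosen by RNA of these genes. They were taken from RefSeq (GRCm38.p6), are written 5′ to 3′ on the strand of the gene in lower case, and carry capitals where the core ACGTG (reverse complement CACGT) or the core GCGTG (reverse complement CACGC) occurs. For Hilpda the first of 2 listed starts is shown, on the plus strand at chr6:29272238-29272487; P4ha1 lies on the plus strand at chr10:59323046-59323295, Bnip3 on the minus strand at chr7:138909507-138909756 and Egln3 on the minus strand at chr12:54203875-54204124.
Hilpda: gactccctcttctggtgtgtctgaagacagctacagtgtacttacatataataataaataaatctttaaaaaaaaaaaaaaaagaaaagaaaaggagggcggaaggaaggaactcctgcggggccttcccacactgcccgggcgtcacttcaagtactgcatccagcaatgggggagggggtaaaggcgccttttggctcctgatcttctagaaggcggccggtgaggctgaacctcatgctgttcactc
Bnip3: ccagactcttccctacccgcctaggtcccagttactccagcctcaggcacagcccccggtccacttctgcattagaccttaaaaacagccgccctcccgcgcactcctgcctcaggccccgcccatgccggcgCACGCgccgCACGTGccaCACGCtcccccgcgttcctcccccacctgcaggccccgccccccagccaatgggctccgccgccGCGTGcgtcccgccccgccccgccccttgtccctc
P4ha1: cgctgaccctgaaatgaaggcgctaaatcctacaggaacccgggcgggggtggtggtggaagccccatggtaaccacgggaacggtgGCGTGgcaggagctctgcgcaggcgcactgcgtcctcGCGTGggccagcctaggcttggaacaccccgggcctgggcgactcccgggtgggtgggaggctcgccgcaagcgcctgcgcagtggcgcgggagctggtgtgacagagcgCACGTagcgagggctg
Egln3: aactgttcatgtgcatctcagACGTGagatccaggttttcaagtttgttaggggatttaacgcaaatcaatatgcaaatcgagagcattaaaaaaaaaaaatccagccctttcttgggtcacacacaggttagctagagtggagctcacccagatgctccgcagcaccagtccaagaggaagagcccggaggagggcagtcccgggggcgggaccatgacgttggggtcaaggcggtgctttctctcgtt

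The Bnip3 window held 2 matches to ACGTG, which overlap as the palindrome CACGTG and its first letter lies 108 bases before the start, and 3 to GCGTG. P4ha1 held 1 match to ACGTG and 2 to GCGTG, and Egln3 held 1 match to ACGTG, 229 bases before its start. The first Hilpda window held no match, whereas the window of its second start, at chr6:29272376-29272625, held 1 match to ACGTG and 2 to GCGTG. The counts per gene do not show which start the RNA came from. Over the 27025 genes of the promoter table, 18.5% held ACGTG, 30.9% held GCGTG and 41.5% held either in at least 1 window. Among the 4436 genes matched of those measured in both libraries, 65.1% held either core, so a match is common in expressed genes. Either core stood before 20 of 23 matched genes of a list of hypoxia-induced genes, 24 of 28 of a glycolysis list, and 12 of 24 of a list of chemokines and cytokines. A match is a run of letters in these windows and was not tested as a site.

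The members carried the RNA of neutrophils. S100a9, an alarmin subunit that was part of the gate, stood at 28284 counts per 1000000 UMIs of the cell group (CPM) in the PBS members and 29342 in the cmExoaCD11b members. Outside the gate, Hdc, which makes histamine, stood at 645 and 941, Clec4d, a lectin of neutrophils and monocytes, at 879.6 and 1103, and Cxcl2, a chemokine that recruits neutrophils, at 46210.2 and 44673. One defining gene was close to 0. Ly6g, the usual surface marker of mouse neutrophils, stood at 14.1 and 11 CPM in members, against 320.5 and 429.7 in the Retnlg and Mmp8 neutrophils, which passed the other limits but stood at or over 0.3% for those 2 genes. None of the 17 other neutrophil markers was at 0 in the members of either library. Slpi, a protease inhibitor, stood at 3069.6 and 2748, Wfdc17, of the same family, at 2386 and 2223, and Fpr1, the receptor for formyl peptides, at 131 and 186.

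Genes of other cell types were scarce in members. The gate allowed at most 2 UMIs of Cd3e, Cd79a and C1qa, so it set part of this. Sums without these genes are not given. The 11 macrophage markers summed to 594 CPM in PBS and 340.0 in cmExoaCD11b, below the 6180.3 and 1087 of droplets with at most 100 UMIs, which hold free RNA. The monocyte list (7 genes) summed to 294 and 288, the dendritic cell list (10) to 209 and 157, the T and NK cell list (10) to 15.5 and 50.4, and the B and plasma cell list (8) to 364 and 752. Tumor epithelium (8 genes) came to 29.1 and 29.9, fibroblasts and endothelium (9) to 47.1 and 61.4, eosinophils, mast cells and basophils (8) to 11.2 and 12.6, acinar cells (10) to 9.7 and 7.87, and erythroid cells and platelets (8) to 161 and 51.9. The most abundant genes of the macrophage list were Apoe (227) in PBS and Cd68 (197) in cmExoaCD11b, and that of the B and plasma cell list was Igkc in both (316 and 672). Those of the monocyte, dendritic cell and endothelial lists were Plac8 (109.6 and 205), Cd74 (103 and 69.3) and Pecam1 (37.8 and 53.5). Free RNA held Plac8 at 726 and 1580.0 and Cd74 at 1059.7 and 770.1, above members, and Pecam1 at 23.6 and 29.5, below them. In each of these 10 lists the members lay below the free RNA of their own library. Among the genes at 0 in the members of both libraries were the dendritic cell genes Xcr1, Cd209a and Siglech. The mast cell genes Cpa3, Fcer1a and Ms4a2 were too. Mrc1 and Trem2 of the macrophage list were at 0 in cmExoaCD11b. Of the 10 acinar genes, 5 were at 0 in PBS members and 8 in cmExoaCD11b members.

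Members held a median of 3142 UMIs and 1044 genes per cell in PBS and 2668 UMIs and 924 genes in cmExoaCD11b, and in all 2061212 and 635262 UMIs. Mitochondrial genes took a median of 0.237% and 0.198% of their UMIs. Of 6904 and 7118 cells in the libraries, 15 barcodes were shared, none of them by members. By the rule itself, the 4 genes took a median of 0.452% of UMIs in PBS members (quartiles 0.282% and 0.744%) and 0.456% in cmExoaCD11b members (0.271% and 0.708%), or a median of 15 and 12 UMIs per cell. At the threshold, 47 of 588 PBS members lay within 0.03 percentage points above it and 39 of 450 other gated neutrophils within as much below, and 17 of 212 and 13 of 308 did in cmExoaCD11b. The 5 PBS members nearest the threshold ranged from 0.151% to 0.152% and the 5 cells just outside from 0.148% to 0.15%, and in cmExoaCD11b the ranges were 0.153% to 0.161% and 0.145% to 0.15%. The gate therefore cut a continuous range.

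The rule genes differed in how many members carried them. Hilpda had a UMI in 84.9% of PBS members and 76.9% of cmExoaCD11b members, and Egln3 in 82.8% and 83.0%. Bnip3 had a UMI in 62.9% and 67.0%, and P4ha1 in 54.3% and 60.8%. These genes chose the cells. Hilpda also had a UMI in 31.0% and 17.1% of T cells and in 40.8% and 22.3% of B cells. Median depths were 5097 and 4094 UMIs in T cells, against 3142 and 2668 in members. In cells thinned at random to equal depth, as described below, Hilpda had a UMI in 75.2% and 68.4% of members. The thinned shares were 10.6% and 5.80% in T cells and 13.5% and 6.99% in B cells. Whether the Hilpda UMIs of T and B cells came from free RNA was not tested. All 4 rule genes were present in 182 of 588 and 66 of 212 members, and a single one in 57 and 21, of which 44 and 12 held Hilpda alone. Each was read in gated neutrophils chosen by the other 3 at the same threshold. Hilpda then stood at 2941 CPM in the chosen PBS cells against 1136 in the rest (2.59 times, 2.47 to 2.72), and at 2794 against 263.9 in cmExoaCD11b (10.6 times, 9.66 to 11.6). Egln3 was 2.88 and 8.01 times as high, Bnip3 4.43 and 11.9 times and P4ha1 4.44 and 10.5 times. Each rule gene was thus higher where the other 3 were high, in both libraries. Deep cells and cells past small limits for precursor, monocyte or macrophage genes were then left out of both groups, as described below. The ratios became 1.96 and 3.45 for Hilpda and 2.17 and 2.87 for Egln3. They became 3.5 and 4.33 for Bnip3 and 3.08 and 3.76 for P4ha1.

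Members were a smaller part of the neutrophils after cmExoaCD11b. They made up 56.6% of gated neutrophils in PBS (exact Clopper-Pearson interval 53.6% to 59.7%) and 40.8% in cmExoaCD11b (36.5% to 45.1%), a ratio of 0.720 (exact conditional interval 0.612 to 0.843). Of all cells that passed the neutrophil genes they made up 18.8% and 5.50% (ratio 0.292, 0.248 to 0.342), and of all cells 8.52% and 2.98% (0.350, 0.297 to 0.410). The latter ratios also carry the share of gated neutrophils themselves, 33.3% and 13.5% of the cells that passed the neutrophil genes. The share did not follow cell depth in PBS, where it lay between 53.5% and 63.4% in 5 ranges of UMIs per cell. In cmExoaCD11b it was 40.7%, 43.5%, 48.3% and 60.4% in gated neutrophils of 1000 to 2000, 2000 to 3000, 3000 to 4000 and 4000 to 6000 UMIs, and 12.3% in the 73 cells above that. Some cells passed small limits for precursor, monocyte or macrophage genes or held over 10000 UMIs. Without them the share was 57.6% in PBS and 46.4% in cmExoaCD11b, a ratio of 0.805 (0.681 to 0.948). The rule genes were also more abundant in the free RNA of PBS, at 1643 CPM against 521 in cmExoaCD11b, beside a threshold of 0.15% of a cell's UMIs. T cells passed the threshold in 11 of 358 cells in PBS (3.07%) and 18 of 741 in cmExoaCD11b (2.43%), and B cells in 5 of 223 (2.24%) and 1 of 229 (0.437%). With 10% and 20% of each cell's UMIs taken to be free RNA and removed from its share of the rule genes, an alternative added once the values were known, the member shares had a ratio of 0.749 (0.638 to 0.876) and 0.761 (0.648 to 0.89). With the rule without Hilpda, the ratio of the member shares was 0.836 (0.689 to 1.01), where the interval holds 1. Intervals of share ratios here treat the cell counts as Poisson and are wider than binomial ones, so this interval does not settle whether 1 is held. With 1 pool per treatment, a difference between pools and an effect of the treatment cannot be told apart.

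The threshold was also read in 2 neutrophil groups that the gate leaves out. Among Retnlg and Mmp8 neutrophils, 206 of 612 in PBS (33.7%) and 118 of 685 in cmExoaCD11b (17.2%) stood at or over it, a ratio of 0.512 (0.405 to 0.645). Among the interferon-responding neutrophils, which exceeded the interferon ceiling but passed the other gates, 113 of 155 in PBS (72.9%) and 37 of 247 in cmExoaCD11b (15%) did, a ratio of 0.205 (0.138 to 0.30). Set against the gated neutrophils, the share of interferon-responding cells over the threshold was 1.29 times as high in PBS (1.04 to 1.58) and 0.367 times as high in cmExoaCD11b (0.252 to 0.523).

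**Figure D1:**
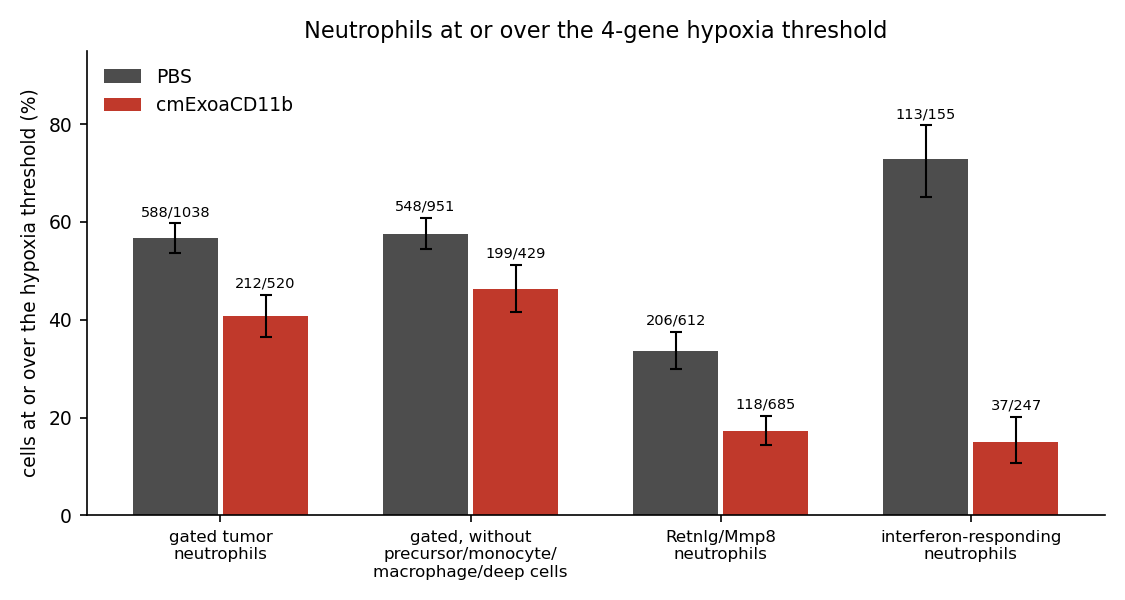
Share of cells, in percent, at or over the hypoxia threshold (Hilpda, Bnip3, P4ha1 and Egln3 together at least 0.15% of UMIs) in 4 sets of neutrophils, for PBS in grey and cmExoaCD11b in red; bars start at 0, error bars are exact 95% binomial intervals, and the fractions give cells over the threshold of all cells. The cmExoaCD11b share is the lower of the pair in each set, and the gap is widest in interferon-responding neutrophils (72.9% against 15%); free RNA held the 4 genes at 1643 CPM in PBS and 521 in cmExoaCD11b.

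Seen from the other side, 113 of 701 neutrophils over the hypoxia threshold exceeded the interferon ceiling in PBS (16.1%) and 37 of 249 in cmExoaCD11b (14.9%, ratio 0.922, 0.618 to 1.35). Of the neutrophils under the threshold, 42 of 492 did in PBS (8.54%) and 210 of 518 in cmExoaCD11b (40.5%), a ratio of 4.75 (3.4 to 6.78). Most interferon-responding cells of the PBS library thus lay over the hypoxia threshold, and most of those of cmExoaCD11b lay under it. In the cells past both limits, Isg15, a ubiquitin-like modifier of the gate, stood at 3846 CPM in PBS and 3925 in cmExoaCD11b, and Rsad2, viperin, at 3779 and 2788. The PBS cells among them held Hilpda at 3122 and Ldha at 1972 CPM, close to the 3185 and 1938 of PBS members, while those of cmExoaCD11b held 2129.7 and 1624, below the 2942 and 2015 of cmExoaCD11b members.

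To describe the members beyond the rule, they were set beside the below-threshold neutrophils, the 450 and 308 gated neutrophils under 0.15%. Of 5518 genes with at least 50 UMIs over both cell groups in each library, 174 were at least 2-fold higher in members in both libraries (3.15%) and 1148 at least 2-fold lower (20.8%). In PBS alone 4.66% of 5993 genes were higher and 21.2% lower, and in cmExoaCD11b alone 11.7% of 6317 and 44.5%. With each library's ratios divided by their median, 372 were higher and 738 lower. The genes with the lowest ratios were Elane, Mpo, Ctsg, Cst7, Nkg7, Prtn3, Tyms, Fcnb, Ms4a3, Prss57, Phgdh, Mcm7, Cdkn3, Mcm6 and Rrm2, of which Elane, Mpo, Ctsg and Prtn3 encode primary granule enzymes of neutrophil precursors and Tyms, Mcm7, Mcm6 and Rrm2 serve DNA replication. Elane stood at 2788 CPM in the below-threshold cells of PBS and 7526 in those of cmExoaCD11b, against 32 and 59.8 in members. A few deep cells carried much of the RNA of the below-threshold group. Cells over 10000 UMIs, 22 of 450 and 53 of 308, held 31.8% and 72.9% of the UMIs of the below-threshold group, and 4.43% and 3.82% of those of the members.

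The comparison was repeated without cells over 10000 UMIs and without cells in which precursor, monocyte or macrophage genes passed small limits, in both groups. This choice was made after the data had been seen. It left out 40 of 588 and 13 of 212 members and 47 of 450 and 78 of 308 below-threshold cells, and Elane then stood at 32 and 57.2 CPM in the below-threshold cells. Of 2744 genes measured in these cleared cells, 109 were at least 2-fold higher in members in both libraries (3.97%) and 72 at least 2-fold lower (2.62%). The median ratio of members to below-threshold neutrophils over all genes moved from 0.819 to 0.914 in PBS and from 0.591 to 0.903 in cmExoaCD11b. Ratios below are those of the cleared cells unless stated, levels of members are over all members, and levels of below-threshold neutrophils are those of the cleared cells. Both groups come from the same libraries and the rule sorted them, so the ratios describe the members and test nothing. A list's medians are over its genes measured in the library in question, so their number can differ from that measured in both.

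**Figure D2:**
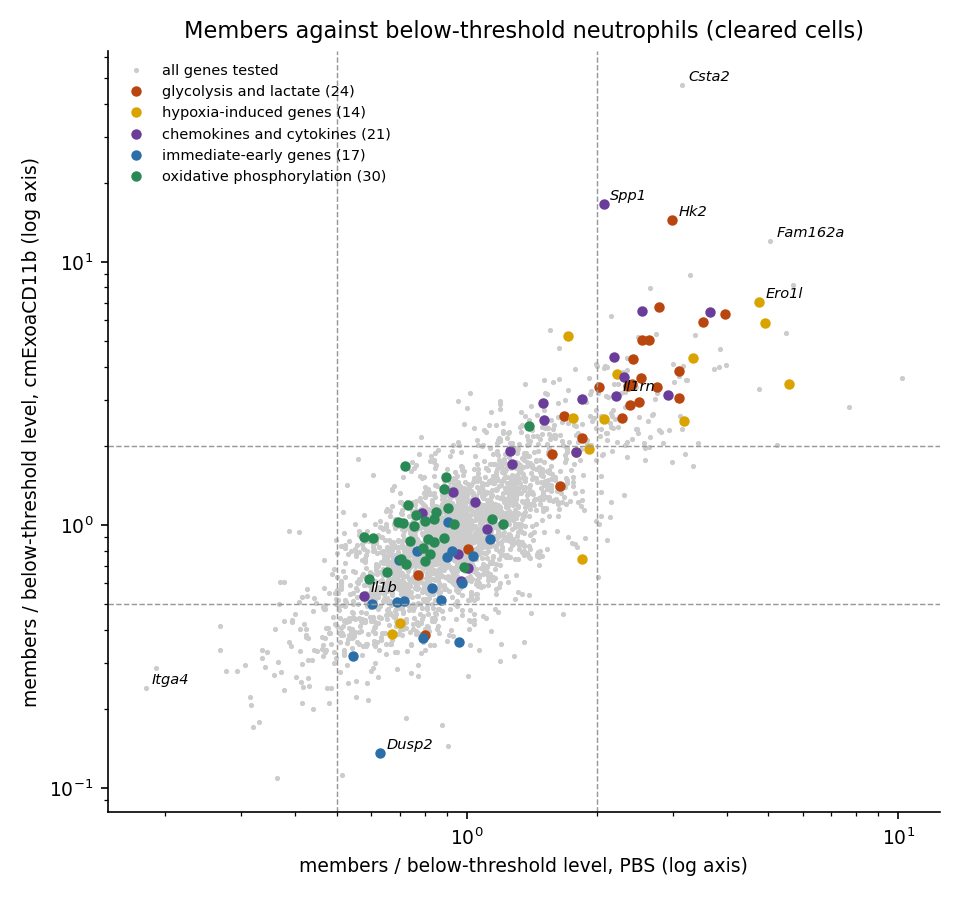
Each point is a gene measured in the cleared cells of both libraries, placed by its ratio of members to below-threshold neutrophils in PBS (x axis) and in cmExoaCD11b (y axis), both log axes; colours mark 5 gene lists with the number measured, dashed lines mark 2-fold, and the rule genes are left out. Genes of glycolysis lie in the upper right, with 17 of 24 past 2-fold in both libraries, while those of oxidative phosphorylation lie near 1.

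Part of the genes induced by HIF was higher in members of both libraries. Of 14 genes measured from the list of hypoxia-induced genes, 7 were at least 2-fold higher in both libraries (background 3.97%) and none lower (2.62%). The medians were 1.92 in PBS and 2.54 in cmExoaCD11b. In all cells 9 of 18 were higher in both (background 3.15%) and 1 lower (20.8%). Ero1l, an oxidase that forms disulfide bonds in the endoplasmic reticulum, stood at 1339 CPM (interval 1289.5 to 1389.9) in PBS members and 1929.9 (1823 to 2041) in cmExoaCD11b members, against 287 and 281 in below-threshold neutrophils. Its ratios were 4.76 (4.26 to 5.33) and 7.04 (5.98 to 8.32), and its levels in members lay far above those of the other group in either library. Bnip3l, the partner of Bnip3 in the removal of mitochondria, stood at 601 and 573 (ratios 3.35 and 4.32). Higd1a, a mitochondrial protein of the respiratory chain, stood at 441 and 434 (4.9 and 5.88), and Gys1, glycogen synthase, at 126 and 110.2 (5.58 and 3.44).

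The other genes of that list past 2-fold in both libraries were Ddit4, an inhibitor of mTOR signaling (2.22 and 3.74), Hmox1, which degrades heme (2.08 and 2.52), and Nos2, inducible nitric oxide synthase (3.19 and 2.49). Others fell short of 2-fold. Vegfa, the vascular growth factor, stood at 357 CPM (331 to 383) in PBS members and 309 (267 to 355) in cmExoaCD11b members, with ratios of 1.79 and 1.9. Plin2, a lipid droplet coat protein, stood at 2138 and 2204 (1.92 and 1.94). Cxcr4, a chemokine receptor often counted among HIF targets, was not higher (0.699 and 0.425). In all cells rather than the cleared ones, 9 of 18 genes of the list were at least 2-fold higher in both libraries and 1, Pam, lower.

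In all cells 4 of 10 HIF sensing and control genes were at least 2-fold higher in both libraries (background 3.15%) and none lower. In the cleared cells 2 of 8 were higher in both (3.97%) and none lower (2.62%), with medians of 1.74 and 2.22. These were Egln1, the main HIF prolyl hydroxylase (129 and 85 CPM, ratios 2.73 and 3.02), and Ankrd37 (3.15 and 2.31). Kdm3a, a histone demethylase induced by HIF, had ratios of 1.93 and 3.16. Bhlhe40, a transcriptional repressor, had 1.52 and 2.37, and Cited2, which competes with HIF for its coactivator, had 1.6 and 2.14. Mxi1, an antagonist of Myc, had 1.13 and 0.988, and Egln2, the third HIF prolyl hydroxylase, 1.49 and 1.13. Hif1a itself stood at 222 and 255 CPM in members against 196 and 237, and Arnt at 67 and 78.7 against 80.8 and 75.7. The RNA of the factor was thus nearly as high in below-threshold neutrophils as in members.

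Glycolysis was the list with the most genes past 2-fold. Of 24 genes measured, 17 were at least 2-fold higher in members of both libraries (background 3.97%) and none lower (2.62%). The medians were 2.43 and 3.35. In all cells, 12 of 25 were higher in both libraries (background 3.15%) and none lower (20.8%). The steps ran from uptake to lactate. Slc2a1, the glucose transporter GLUT1, stood at 717 CPM (681 to 755) in PBS members and 745 (679 to 815) in cmExoaCD11b members, with ratios of 2.5 and 2.94. Hk2, hexokinase 2, stood at 454 and 493 in members and at 157 and 33.6 in below-threshold neutrophils, with ratios of 2.99 (2.56 to 3.51) and 14.5 (9.21 to 24.1). The wider gap of Hk2 in cmExoaCD11b lay in the below-threshold cells, since the members of both libraries were close.

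Among the later steps, the phosphofructokinase genes Pfkp (3.11 and 3.86) and Pfkl (2.65 and 5.03), the regulator Pfkfb3 (3.11 and 3.03), Aldoa, aldolase (2.02 and 3.35), Tpi1, triosephosphate isomerase (2.79 and 6.76), and Pgk1, phosphoglycerate kinase (2.43 and 4.26), were past 2-fold in both libraries. Gapdh stood at 4816 and 3400.2 CPM in members against 1939 and 961. Ldha, which makes lactate, stood at 1938 (1878 to 1999) and 2015 (1906 to 2128) against 568 and 341, ratios of 3.54 (3.26 to 3.84) and 5.93 (5.11 to 6.92). Mif, a cytokine also induced by HIF, had ratios of 2.54 and 5.06. Pkm, pyruvate kinase, stood at 1467 and 1214 (1.68 and 2.59), and Gpi1, glucose-6-phosphate isomerase, at 535 and 450.2 (2.39 and 2.86). Not every gene of sugar use shared the pattern. Slc2a3, the transporter GLUT3, had ratios of 1.01 and 0.812, and Pygl, glycogen phosphorylase, 0.771 and 0.647, while Pgm1 and Gbe1, which serve glycogen synthesis among other ends, had 3.97 and 6.32, and 2.76 and 3.34.

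Oxidative phosphorylation depended on which cells were counted. In all cells 29 of 45 genes were at least 2-fold lower in members of both libraries (background 20.8%) and none higher, and in cleared cells 0 of 30 passed 2-fold either way in both, with medians of 0.79 and 1.0. Cox4i1, a subunit of cytochrome c oxidase, stood at 253 and 231 CPM in members, at 601 and 744 in all below-threshold cells and at 345 and 267 in the cleared ones. Cox8a had cleared ratios of 0.846 and 1.12, Atp5e 0.812 and 0.882, Atp5l 0.799 and 0.728, Ndufa4 0.985 and 0.692 and Ndufa7 0.934 and 1.01. The same held for the cell cycle list, with 11 of 11 genes lower in all cells and 0 of 3 in cleared cells. The 2-fold differences of both lists were thus not seen in the cleared cells, where few cell cycle genes reached 50 UMIs.

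**Figure D3:**
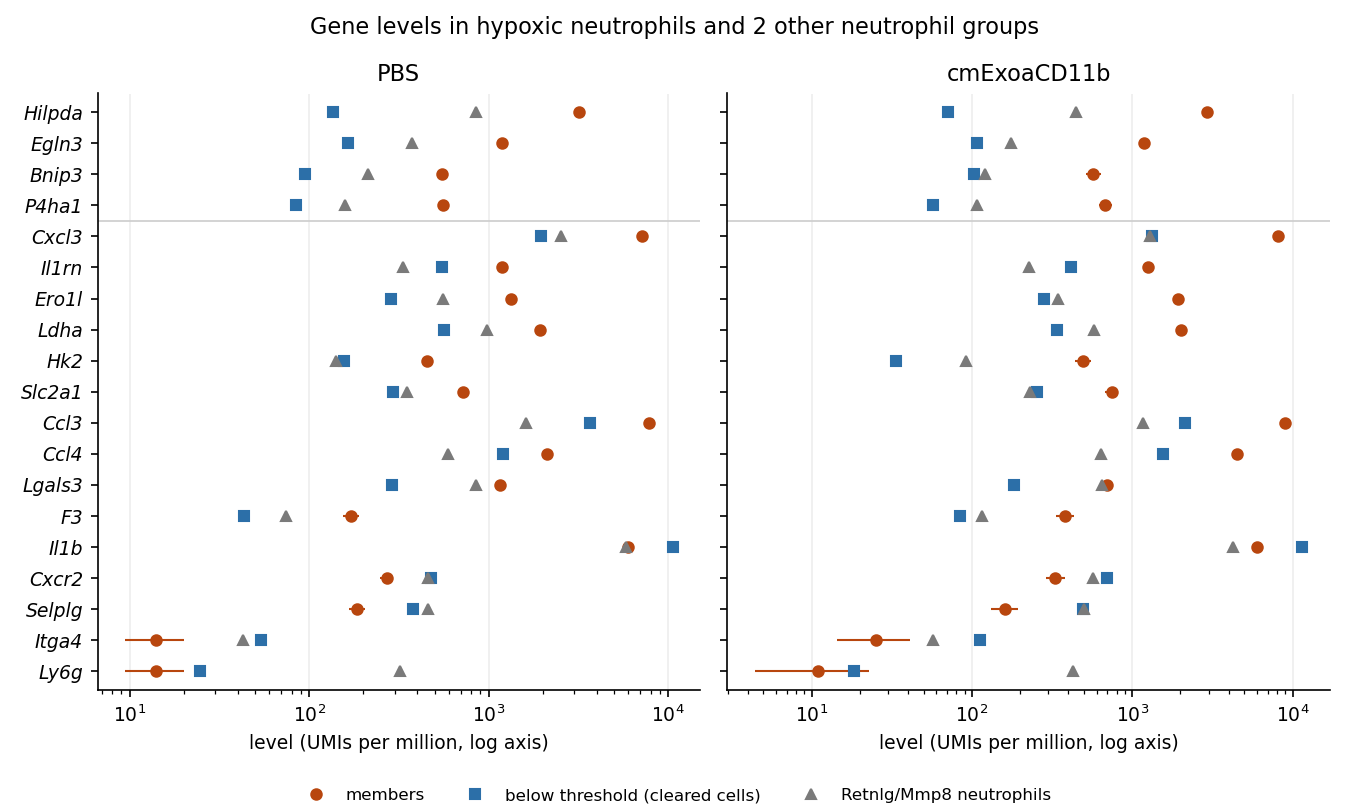
Levels of 19 genes in CPM (log axis) in PBS (left) and cmExoaCD11b (right), for all members (orange circles, with exact 95% Poisson intervals), cleared below-threshold neutrophils (blue squares) and Retnlg and Mmp8 neutrophils (grey triangles); the 4 rule genes stand above the line. Members are the highest of the 3 groups from Cxcl3 to F3 and the lowest for Cxcr2, Selplg, Itga4 and Ly6g in both libraries.

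The 2 marker genes of these cells that the rule did not use were both higher. They were named with earlier results of these data known, so their higher levels describe the members and are no independent check. Cxcl3, an attractant of neutrophils through Cxcr2, stood at 7119 CPM (7004 to 7235) in PBS members and 8082 (7862 to 8306) in cmExoaCD11b members, against 1951 and 1320.5 in below-threshold neutrophils and 2521 and 1291 in Retnlg and Mmp8 neutrophils. Its ratios to below-threshold neutrophils were 3.67 (3.51 to 3.83) and 6.43 (5.96 to 6.94). Over the alternative settings the PBS ratio of Cxcl3 fell as low as 1.85, under 2-fold, and that of cmExoaCD11b to 6.43. Il1rn, the antagonist of the interleukin-1 receptor, stood at 1185 and 1251 against 552 and 415, ratios of 2.22 (2.04 to 2.42) and 3.11 (2.69 to 3.6). Il1b, the ligand that Il1rn opposes, lay the other way, at 5951 and 5980.2 in members against 10598 and 11511, ratios of 0.578 and 0.537. In all cells, whose below-threshold group held Il1b at 2985 in cmExoaCD11b, the ratio there was 2.0.

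Cxcl3 was uneven among members. It made up a median of 1.16 UMIs per 1000 in PBS members, with a lower quartile of 0, an upper quartile of 9.18 and a maximum of 112, and a median of 2.78 in cmExoaCD11b members, with quartiles of 0 and 12.7 and a maximum of 41.0. To compare cells at equal depth, each was thinned to 1000 UMIs at random, for which no member was too shallow. Cxcl3 then had a UMI in 56.3% of PBS members and 61.8% of cmExoaCD11b members (68.9% in both before thinning), against 29.3% and 17.8% of cleared below-threshold neutrophils. In T cells, which should lack it and show free RNA, the thinned shares were 9.78% and 2.16%, at median depths of 5097 and 4094 UMIs before thinning. Il1rn had a UMI in 50.9% and 47.2% of thinned members against 0.559% and 0.405% of T cells, and Ero1l in 55.4% and 59.9% against 7.54% and 5.13%. Elane, by contrast, had one in 5.10% and 8.02% of thinned members, against 2.79% and 2.43% of T cells and 1.35% and 3.06% of B cells.

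The medians of the list of chemokines and cytokines were 1.5 and 1.91. Of 21 measured, 7 were at least 2-fold higher in members of both libraries (background 3.97%) and none lower (2.62%). Besides Cxcl3 and Il1rn these were Ccl2, Ccl3, Ccl6, Ccl9 and Spp1. In all cells 9 of 22 were higher in both (background 3.15%) and none lower (20.8%). Ccl2 had 62 UMIs in cmExoaCD11b members, in 9 of 212 cells. Ccl3, which attracts myeloid cells through Ccr1, stood at 7860.4 and 8966 CPM against 3659.7 and 2129.6 (ratios 2.2 and 4.35). In PBS the Ccl3 ratio over all cells, 3.27, was 1.2 with the rule without Hilpda, under 2-fold. Ccl4, its relative, stood at 2126 and 4512 against 1210.3 and 1549 (1.85 and 3.02). Ccl6 stood at 2686 and 3756 (2.31 and 3.67). Spp1, osteopontin, stood at 540.0 and 826 against 227 and 52.1 (2.07 and 16.6), and free RNA held it at 2297 and 413. Tnf, at 1121 and 461 against 1063 and 483, did not share the pattern (1.11 and 0.967), nor did Osm, a relative of interleukin-6 (0.953 and 0.772), and Cxcl2 was higher by less (1.27 and 1.71). Cxcl10, an interferon-induced chemokine, had 0.968 and 0.615, and Tgfb1 1.26 and 1.91.

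In the cleared cells few receptor genes passed 2-fold in both libraries, and those that did were lower. Of 26 genes of receptors and adhesion, 2 were at least 2-fold lower in both libraries (background 2.62%) and none higher (3.97%), with medians of 0.972 and 1.08. In all cells 3 of 27 were higher in both libraries (background 3.15%) and 1 lower (20.8%), with medians of 1.14 and 2.33. Itga4, the alpha 4 integrin subunit, stood at 14.1 and 25.2 CPM against 53.6 and 113 (0.18 and 0.24). Selplg, the selectin ligand PSGL-1, stood at 184 and 161 against 379 and 495 (0.492 and 0.298). Cxcr2, a gene of the gate and the receptor for Cxcl3, had ratios of 0.569 and 0.431. Ccr1 (1.08 and 1.08), Ccrl2 (0.764 and 1.12) and Hcar2, a receptor for nicotinic acid and beta-hydroxybutyrate (1.55 and 1.62), stayed under 2-fold. Cd14, the co-receptor for lipopolysaccharide, stood at 1636 and 1242 CPM, ratios 1.27 and 1.08, and Fcgr3, an Fc receptor, at 1219 and 1321 CPM, ratios 1.45 and 1.76. Gpr84, a receptor for medium-chain fatty acids, had ratios of 0.611 and 0.431, and Tnfrsf23, a decoy receptor, 1.79 and 1.84.

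Of 16 genes of suppression and checkpoints, 2 were at least 2-fold higher in both libraries (background 3.97%) and none lower (2.62%). In all cells 3 were higher in both (3.15%) and 1 lower (20.8%). The 2 higher in the cleared cells were Nos2 and Pdcd1lg2, which encodes the PD-1 ligand PD-L2 (128 and 119.6 CPM, ratios 3.0 and 4.08). Cd274, which encodes PD-L1, stood at 890.3 (850.0 to 932) and 1130.2 (1049 to 1216) against 572 and 601, ratios of 1.57 and 1.84. Ncf1, of the oxidase that makes superoxide, was lower by less than 2-fold in members, with ratios of 0.511 and 0.613. Cybb, the catalytic subunit of that oxidase, had 0.687 and 0.481, and Ncf4 0.61 and 0.806. Ptgs2, cyclooxygenase 2, stood at 798 and 962 CPM, ratios 1.04 and 1.23. In all cells the ratios of Cd274 were 2.17 and 5.05, so that PD-L1 passed 2-fold there and stayed under it in the cleared cells, while PD-L2 passed it in both.

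Among 17 immediate-early genes 0 passed 2-fold in both libraries of cleared cells, with medians of 0.825 in PBS and 0.574 in cmExoaCD11b. In all cells the medians were 1.11 and 1.71, and in cmExoaCD11b 6 of 19 were at least 2-fold higher (background 11.7%) and 2 lower (44.5%), so that the list lay above 1 in all cells and below it in the cleared ones. In cleared cells of cmExoaCD11b alone, 5 were at least 2-fold lower, against 11.4% of all 2752 genes measured there, among them Fos (3238 and 2495 CPM against 4004 and 6469.5, ratios 0.79 and 0.372) and Dusp2, a phosphatase of MAP kinases (0.629 and 0.136). Junb, a subunit of AP-1, stood at 7060.4 and 5519 CPM, ratios 0.696 and 0.735, Jun at 5472 and 4436 CPM, ratios 0.923 and 0.796, Klf2 at 7981 and 4811 CPM, ratios 0.873 and 0.519, and Dusp1 at 6563 and 5705 CPM, ratios 0.832 and 0.574. Egr1 had ratios of 1.13 and 0.883 and Fosl2 0.904 and 1.02. Of 21 genes of NF-kB feedback 1 was lower in both (background 2.62%), Tnfaip2 (0.424 and 0.402). Nfkbia, the inhibitor of NF-kB, was alike (0.839 and 0.952). In all cells 0 of 22 passed 2-fold in both, with medians of 1.11 and 2.52. Ier3, a survival gene, stood at 10137 and 8829 CPM, ratios 1.36 and 1.77, Nfkbiz at 1580.1 and 1584 CPM, ratios 0.942 and 0.629, and Gadd45b at 1533 and 2147 CPM, ratios 0.922 and 1.21. Rela had ratios of 0.728 and 0.503, and Bcl2a1a, with near-identical copies between which reads may split, 0.999 and 2.78. The lists of heat-shock chaperones (0 of 9 past 2-fold in both, medians 1.07 and 1.19) and of the unfolded protein and integrated stress response (0 of 12, 1.09 and 1.17) lay near 1 in the cleared cells. In all cells 4 of 12 chaperones were lower in both libraries (background 20.8%), with medians of 0.753 and 0.736, and the stress response had 1 of 14 lower, with medians of 1.34 and 2.06. Ddit3, a transcription factor of that response, had ratios of 1.04 and 1.33. Cebpb, a transcription factor of that list, stood at 9126 and 8946 CPM, ratios 0.886 and 1.04, Ppp1r15a, which ends the response, at 688 and 820.1 CPM, ratios 1.06 and 1.14, and Slc7a11, the cystine transporter, at 613 and 894 CPM, ratios 1.06 and 0.652. Sesn2 had ratios of 1.45 and 1.63, Gclm 1.17 and 1.87 and Nupr1 0.776 and 2.01. Of the chaperones, Hspa5, of the endoplasmic reticulum, had 1.09 and 1.18, Hsp90aa1 1.13 and 1.7, Hsp90ab1 0.868 and 0.769 and Hspd1 1.02 and 1.34, and the near-identical pair Hspa1a (1.23 and 1.64) and Hspa1b (1.57 and 2.17) may share reads.

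Of 18 genes of cell death and survival, 1, Bnip3l, was at least 2-fold higher in both libraries (background 3.97%) and none lower (2.62%). In all cells 3 of 25 were higher in both (3.15%) and 2 lower (20.8%). Cdkn1a, the cell cycle inhibitor p21, stood at 1997 and 1719 CPM against 1235 and 604 (1.62 and 2.92), and Bcl2l1, which encodes the survival protein BCL-XL, at 517 and 737 (1.21 and 1.7). Fth1 and Ftl1, the ferritin chains that store iron, stood at 42365 and 49669 CPM, ratios 1.79 and 2.2, and at 11254 and 9585 CPM, ratios 1.19 and 1.15. Mcl1, a survival factor of neutrophils, stood at 4176 and 4397 CPM, ratios 1.14 and 1.22, while Bak1 had ratios of 0.656 and 0.692 and Casp1 0.67 and 0.402. In all cells, 1 of 13 genes of the lipid list, to which Hilpda is tied by function, was higher in both and 2 lower. The background was 3.15% and 20.8%, and the medians of the list were 1.18 and 0.897. In the cleared cells, 0 of 7 genes of the list passed 2-fold in both, with medians of 1.15 and 1.02. Of these, Acsl1, which activates fatty acids, stood at 341 and 360.5 CPM, ratios 1.15 and 1.02, Dgat1, which completes triglycerides, at 289 and 425 CPM, ratios 0.915 and 0.804, and Fabp5, a fatty acid carrier, at 151 and 236 CPM, ratios 1.24 and 1.64. Of 12 genes of collagen hydroxylation and matrix 2 were higher in both (background 3.97%). These were Lgals3, galectin-3 (1159 and 694 against 289 and 183, ratios 3.74 and 3.9), and Timp2, an inhibitor of metalloproteinases (2.12 and 2.1). In all cells 0 of 12 were higher in both. Lgals3 had ratios there of 2.27 and 1.14 and Timp2 1.76 and 6.35, so both calls came with the clearing. Plaur, the urokinase receptor, had ratios of 0.951 and 1.3, and the cathepsins Ctsb 1.81 and 2.24 and Ctsd 0.737 and 0.586. Granule and early maturation genes (0 of 12) and the STING pathway (0 of 6) had none in the cleared cells, with medians of 0.883 and 0.869, and 0.846 and 0.863. In all cells 6 of 15 granule and early maturation genes were lower in both libraries (background 20.8%), with medians of 0.529 and 0.437, and genes of precursors were among those used to clear the cells. Tbk1, the kinase downstream of STING, stood at 122 and 123 CPM, ratios 1.1 and 0.898, Ikbke at 73.7 and 45.7 CPM, ratios 1.09 and 1.27, and the interferon receptor genes Ifnar2 at 177 and 244 CPM, ratios 0.841 and 1.07, and Ifngr1 at 85.9 and 119.6 CPM, ratios 0.654 and 0.828.

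In the cleared cells of cmExoaCD11b, more interferon-stimulated genes were 2-fold lower in members than higher. The interferon ceiling left out whole cells, in cmExoaCD11b 210 of 518 neutrophils under the hypoxia threshold and 37 of 249 over it. The cells left out held Ifit1 at 1518 and 713 CPM. The rule thus also lowered interferon genes such as Ifit1 outside the gate, and not equally in the 2 groups. The 6 genes of the gate itself were held low in both groups by the rule, so only genes outside it are given. Of these, 7 of 17 were at least 2-fold lower in members of cmExoaCD11b and 1 higher (background 11.4% lower and 8.28% higher), with a median of 0.558, against 1 of 22 lower and 1 higher in PBS (4.07% and 4.35%), with a median of 0.865. In all cells of cmExoaCD11b, 5 of 29 were lower (background 44.5%) and 1 higher (11.7%), with a median of 0.833 beside 0.591 over all genes, so the list lay below the genes at large in the cleared cells and above them in all cells. Ifit1, an RNA-binding effector, stood at 15.5 CPM in PBS members and 36.2 in cmExoaCD11b members, against 12 and 114 in below-threshold neutrophils and 20.4 and 144 in Retnlg and Mmp8 neutrophils. Rtp4, a chaperone of receptor transport, stood at 93.6 and 129 against 85.7 and 281 (1.04 and 0.434), and Oasl1 at 46.6 and 51.9 against 36.8 and 151 (1.35 and 0.358). The cmExoaCD11b members thus lay between both PBS groups and the cmExoaCD11b below-threshold neutrophils for all 3 genes. Ifi204, a DNA sensor of the interferon-inducible family, lay the other way in both libraries (2.58 and 2.05). The genes of the list with the highest counts were Ifitm1 (1746 and 2429 CPM, ratios 0.517 and 0.413), Ifitm3 (360.5 and 425 CPM, ratios 0.866 and 0.558), Slfn4 (463 and 464 CPM, ratios 1.17 and 0.709) and Slfn1 (397 and 387 CPM, ratios 0.945 and 0.861), and Herc6 had ratios of 0.67 and 0.272. The free RNA of cmExoaCD11b held Ifit1 at 295 CPM against 88.8 in PBS. Whether the difference between the libraries exceeds that between pools was not tested.

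Over all genes, listed or not, the 15 with the highest ratios in the cleared cells of both libraries were Fam71f2, Impa2, Fam162a, Higd1a, Ero1l, Fndc3a, Pgm1, F3, Fmnl2, Lgals3, Cxcl3, Ccdc126, Ldha, Gys1 and Inhba, of which 7 were on a list. Fam162a, a mitochondrial protein induced by HIF, stood at 869 and 916 CPM against 175 and 79.1 (5.04 and 12). F3, tissue factor, the starter of coagulation, stood at 171 and 379 against 43.2 and 84.1 (3.87 and 4.69). Inhba, which encodes a subunit of activin A, stood at 298 and 372 (3.37 and 5.26), and Fmnl2, a formin that builds actin filaments, at 627 and 939.8 (3.85 and 4.0). In all cells the 15 highest also held P2rx7, Ciart, Prok2, Csta2, Eml1 and Pdcd1lg2. Csta2, a stefin with near-identical relatives between which reads may split, had cleared ratios of 3.15 and 46.9, and Prok2, prokineticin 2, 3.21 and 1.85. Of the 15 lowest in cleared cells (Itga4, March1, Ipcef1, Stat5b, Steap4, Cd244a, Prr5l, Nlrp12, Rasa3, Apobec3, Lrg1, Tgfbi, Nfam1, Fam129a and Sycp2), Stat5b, a factor downstream of cytokine receptors, had ratios of 0.293 and 0.278, and Nlrp12, a negative regulator of inflammation, 0.329 and 0.178.

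Within members, the levels of some genes were higher at higher shares of the rule genes, and those of others were not. Cleared gated neutrophils were split by the share of UMIs in the 4 genes into cells at 0 (151 in PBS, 127 in cmExoaCD11b), over 0 and under 0.15% (252 and 103), 0.15% to under 0.30% (154 and 60), 0.30% to under 0.60% (201 and 72), and 0.60% and over (193 and 67). Ldha went over these 5 ranges from 358 to 3045 CPM in PBS and from 189.8 to 3063 in cmExoaCD11b, and Il1rn from 519.6 to 1551 and from 249.8 to 1699.9. Cxcl3 went from 745 and 2535 to 6431, 6670.1 and 8313 in PBS, and from 393 and 2267 to 6413, 8996 and 9806 in cmExoaCD11b. The libraries differed in order for some genes. Over the 3 ranges of members Ccl4 stood at 2869, 1823 and 2163 CPM in PBS and 2689, 5556 and 5488 in cmExoaCD11b. Cxcl2 stood at 49862, 48997 and 43035 in PBS and 44509.5, 46764 and 47519.6 in cmExoaCD11b, and Spp1 at 339, 411 and 648 and 1018, 968 and 606. Cxcl2 was thus highest at 0.60% and over in cmExoaCD11b alone, Spp1 in PBS alone and Ccl4 in neither. Il1b went from 11681 to 4236 in PBS and from 11104 to 4151 in cmExoaCD11b, and Cxcr2 from 532 to 194 and from 689 to 228. Median depths of the ranges lay between 2161 and 3281 UMIs per cell. The order is a description, since the cells of a range come from 1 library each and share their counts.

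**Figure D4:**
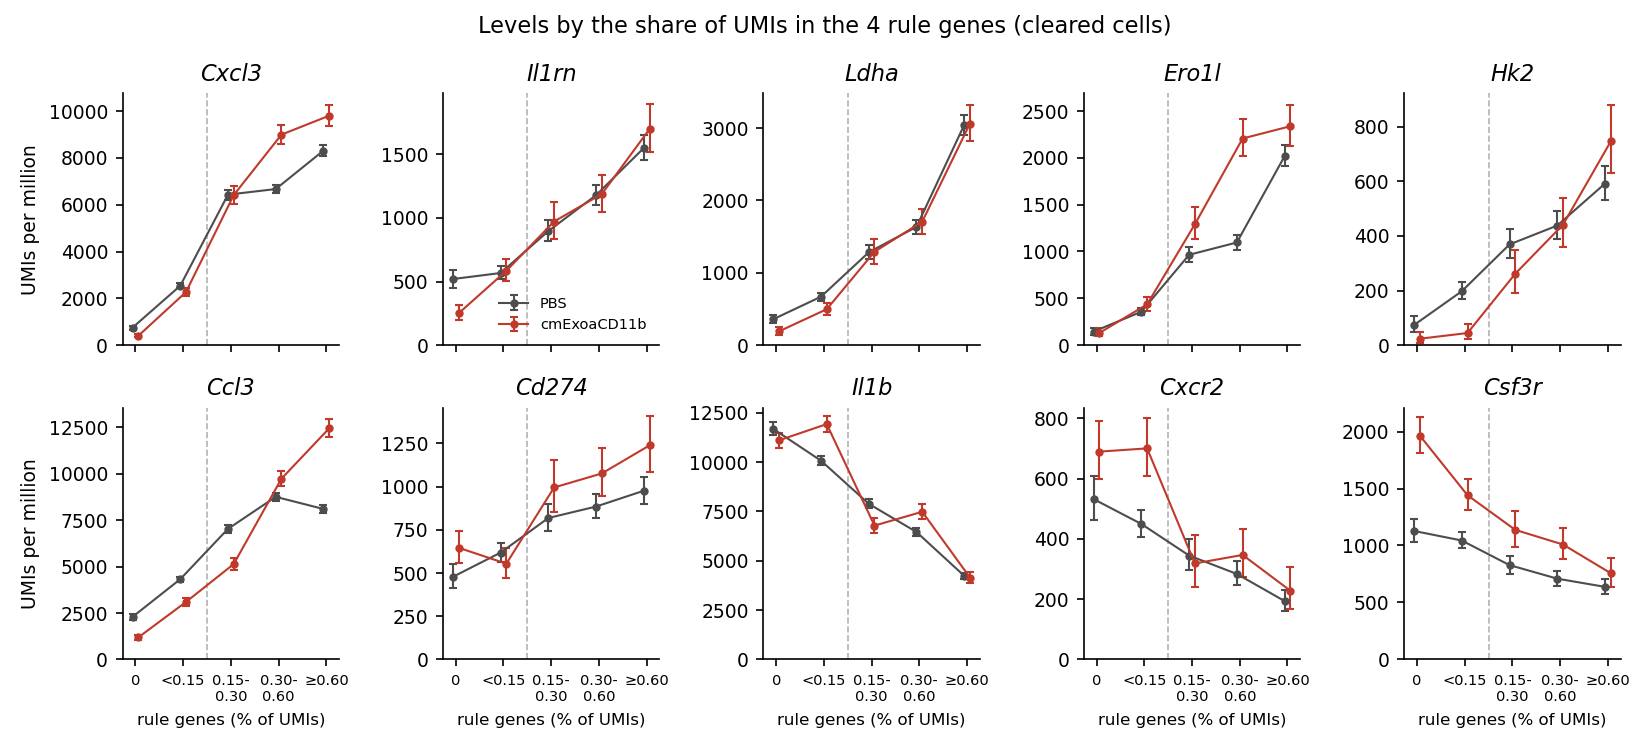
Levels of 10 genes in CPM, each panel on its own axis from 0, over 5 ranges of the share of UMIs in the 4 rule genes, for cleared gated neutrophils of PBS (grey) and cmExoaCD11b (red); bars are exact 95% Poisson intervals and the dashed line is the 0.15% threshold. Cxcl3, Il1rn, Ldha, Ero1l and Hk2 are highest at 0.60% and over in both libraries, while Il1b, Cxcr2 and Csf3r are lowest there.

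Last, the members of cmExoaCD11b were set beside those of PBS. Of 4354 genes with at least 50 UMIs over both, 53 were at least 2-fold higher in cmExoaCD11b (1.22%) and 176 at least 2-fold lower (4.04%), and the median ratio of all genes was 0.986. In cleared cells the shares were 1.52% and 4.0% of 4075 genes. Few genes thus passed 2-fold between treatments. Among the rule genes, which the choice of cells holds in common, Hilpda had a ratio of 0.924 (0.877 to 0.973), Egln3 0.986, Bnip3 1.04 and P4ha1 1.22. Of 25 glycolysis genes 0 passed 2-fold (median 0.972), and Ldha had 1.04 and Slc2a1 1.04. Ero1l was 1.44 times as high (1.35 to 1.54) and Kdm3a 1.74 times. Of 20 hypoxia-induced genes, 4 were at least 2-fold lower, among them Adm, Mt1 and Mt2, and none higher. Adm rested on few cells, with 86 UMIs in 27 of 588 PBS members, 24 of them in 1 cell, and 10 UMIs in 6 of 212 cmExoaCD11b members. Of 10 genes of HIF sensing 0 passed 2-fold. In the Retnlg and Mmp8 neutrophils, which were not chosen by these genes, Hilpda had a ratio of 0.525, Egln3 0.472 and Ldha 0.592.

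Of 23 chemokines and cytokines 2 were at least 2-fold higher in cmExoaCD11b members (background 1.22%) and 4 lower (4.04%). Ccl4 stood at 2126 CPM (2063 to 2189.8) in PBS and 4512 (4348 to 4679.8) in cmExoaCD11b, a ratio of 2.12 (2.02 to 2.22), against 1.07 in Retnlg and Mmp8 neutrophils. The ratio was 1.58 without the Retnlg and Mmp8 ceiling, under 2-fold, and 1.96 with equal weight per cell. Per cell the medians were 0.28 and 0.271 UMIs per 1000, and the 90th percentiles 6.05 and 16.5. Thbs1, thrombospondin 1, had a ratio of 2.19 (1.91 to 2.5), and 1 PBS cell held 24.3% of its UMIs there. Tnf was lower, at 1121 and 461 (0.412, 0.363 to 0.465; 0.695 in Retnlg and Mmp8 neutrophils), as were Ccl2, an attractant of monocytes (290.1 and 97.6; 0.336, 0.255 to 0.437), Cxcl1 (81 and 7.87; 0.0971, 0.0311 to 0.231) and Tnfsf9 (0.211). The free RNA of the PBS library also held more of these, Ccl2 at 580.4 against 165 CPM and Cxcl1 at 132 against 31.4, and its part in the ratios was not tested. In cmExoaCD11b members Ccl2 had 62 UMIs in 9 of 212 cells, 23 of them in 1 cell, and Cxcl1 5 UMIs in 3 cells. Cxcl3 (1.14), Il1rn (1.06), Il1b (1.0), Cxcl2 (0.967) and Ccl3 (1.14) were close to 1.

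Other genes of neutrophils that differed were Lcn2, lipocalin 2, which binds bacterial iron carriers (974 and 2005 CPM, ratio 2.06, 1.92 to 2.21), and Mmp9, a gelatinase of the granules (733 and 351, ratio 0.479, 0.414 to 0.552). Lcn2 made up 5605 and 8164 CPM of the free RNA, above its level in members, and the part of free RNA in its ratio was not tested. Sod2, which detoxifies superoxide, had a ratio of 1.88 (1.59 to 2.22) and Cd274 1.27 (1.16 to 1.38). Of 21 interferon-stimulated genes 2 were at least 2-fold higher (background 1.22%), Ifit1 (2.33, 1.3 to 4.11) and Parp14 (2.22, 1.44 to 3.39), with a list median of 1.31. In Retnlg and Mmp8 neutrophils the ratio of Ifit1 was 7.04. Dusp2 (0.293) and Klf4 (0.413) were the immediate-early genes past 2-fold, both lower, of 18 (background 4.04% lower). With membership set after thinning to 1000 UMIs the ratio of Klf4 turned to 1.13.

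**Figure D5:**
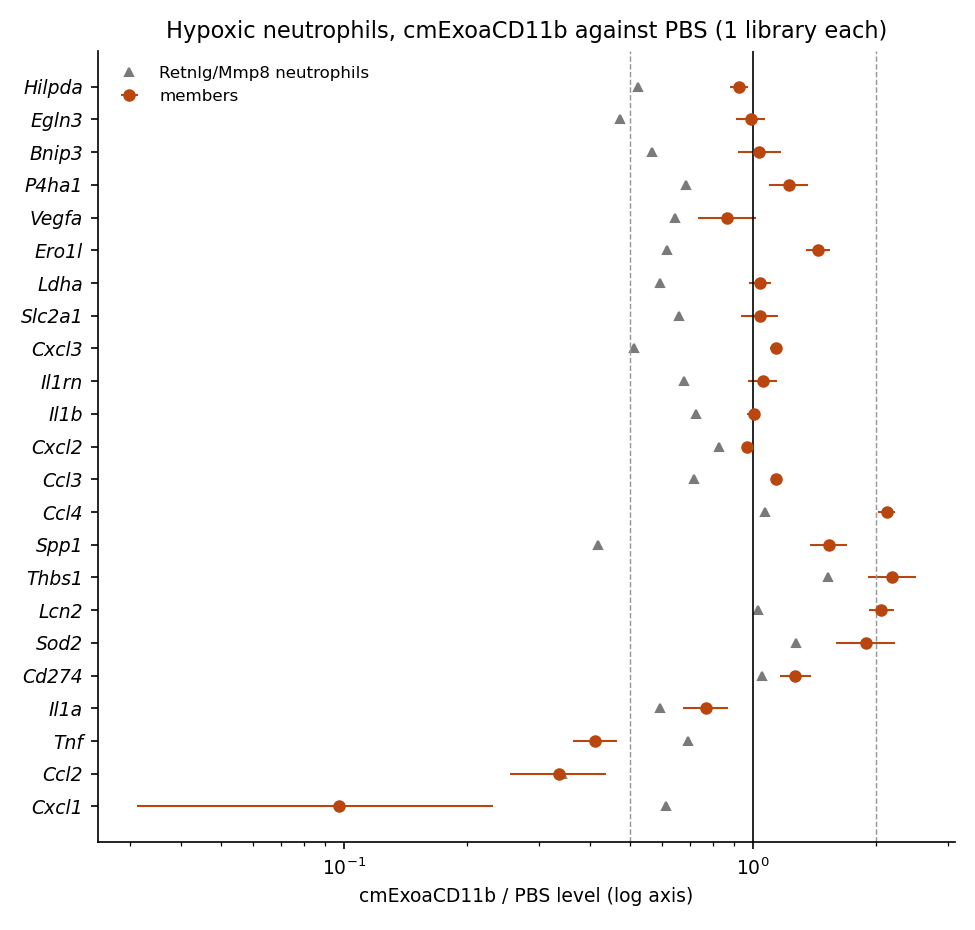
Ratio of the level in cmExoaCD11b to that in PBS (log axis) for 23 genes in members (orange circles, bars are exact conditional 95% intervals for counting error) and in Retnlg and Mmp8 neutrophils (grey triangles); the solid line marks 1 and dashed lines 2-fold. Rule genes and glycolysis genes of the members lie near 1, Ccl4, Thbs1 and Lcn2 lie past 2, and Tnf, Ccl2 and Cxcl1 lie below 0.5.

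The lowest ratios of all came in part from single cells or from genes of other cell types. The 15 lowest included Ccl7, Dip2c, Lmna, Pid1, Ppbp, Acp5, Cxcl1, Pkd1l2, Pf4, Hist1h4h, Fn1, Ccl24, C1qb and Tnfsf9. Ppbp, a platelet chemokine, had 107 UMIs in PBS members, 102 of them in 1 cell, and 0 in cmExoaCD11b members, where 0 of 635262 UMIs allows up to 4.72 CPM. Of 8 macrophage genes 5 were at least 2-fold lower in cmExoaCD11b members (background 4.04%), among them C1qa, C1qb, C1qc and Apoe, each of which stood higher in free RNA than in members.

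The 15 highest were Ighg1, Schip1, AW011738, Ifi207, Ighg2b, Parp8, Gdap2, Trpm2, Apobec3, Rad51b, Prok2, Ccl5, Mrps28, Tmem131l and Irak3. Some rested on few cells, since 1 cmExoaCD11b cell held 14 of 30 UMIs of Parp8, 12 of 33 of Ccl5, 34 of 94 of Prok2 and 10 of 38 of AW011738. Ighg1, an antibody heavy chain of plasma cells, stood at 7.28 and 78.7 CPM in members and at 99.3 and 1921 in free RNA. Ifi207, of the family of Ifi204, stood at 45.6 and 154 (3.38, 2.52 to 4.54), with similar ratios in cleared below-threshold cells (2.98) and Retnlg and Mmp8 neutrophils (2.45). Irak3, an inhibitor of Toll-like receptor signaling, stood at 50.9 and 124 (2.44, 1.8 to 3.3), and Trpm2, a calcium channel gated by oxidative stress, at 17 and 51.9 (3.06). Of the remaining lists, 3 of 43 genes of oxidative phosphorylation were lower (background 4.04%) and none higher (1.22%), with a median of 0.721. In the heat-shock list 0 of 10 genes and in the stress response list 0 of 14 passed 2-fold.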

How the data were processed

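Cells pooled from 3 mice gave 1 droplet library for each treatment. The files deposited by the authors are tables of raw UMI counts from Cell Ranger (7.1.0 in the file headers, 3.0.2 in the study's methods); the genome build and the use of strand are not given in the sources used here. The deposited counts hold 644248 and 723594 barcodes, empty droplets included, and 67143628 and 81288480 UMIs. The gates stated in the report left 588 and 212 members. No doublet caller was run, and at most 2 UMIs of Cd3e, Cd79a and C1qa were allowed.

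UMIs were summed over cells and divided by the group's total (CPM, per 1000000 UMIs), with exact Poisson intervals. Ratios have exact conditional intervals and shares exact Clopper-Pearson intervals, all at 95% and for counting error only. The intervals of ratios of shares treat the cell counts as Poisson and are wider than binomial ones. A gene needed 50 UMIs over both groups compared, a 2-fold ratio counted as a call, and a count of 0 allows up to 3 counts. With 1 library per treatment no test was made, so neither the edgeR test of counts nor any p-value was used. Symbols with 2 identifiers (Ddit3, Aldoa) were summed. T cells and B cells, used as background, needed 0.1% of UMIs in their markers and under 1% in the neutrophil genes. Cleared cells had under 0.1% of UMIs in precursor genes, under 0.1% in monocyte genes, under 0.3% in macrophage genes and at most 10000 UMIs.

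The members, gene lists and limits were chosen with earlier results of these data known. By the rule for named genes, a list gave its 4 genes with the highest level in members and up to 4 with the largest ratio, and each comparison its 15 highest and 15 lowest ratios; members of the lists of other cell types are mostly given as sums. Further genes of the lists, named for their role, were chosen after their values were seen. The scripts were tested on simulated data. Python 3.11.15, numpy 2.4.6, scipy 1.17.1, pandas 2.3.3 and matplotlib 3.10.9 were used. Some genes are not reported here.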

Additional observations from a re-analysis of the deposited data

Results flagged for a closer look

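The share of cells over the hypoxia threshold differed in opposite directions between the libraries when interferon-responding neutrophils were set against gated neutrophils. In PBS it was 72.9% (113 of 155) against 56.6% (588 of 1038), a ratio of 1.29. In cmExoaCD11b it was 15% (37 of 247) against 40.8% (212 of 520), a ratio of 0.367. Each library is 1 pool of mice, and the difference between the 2 ratios was not tested.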

How the results depend on the processing

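Each treatment was 1 pool of 3 mice, so the spread between mice is unknown, and no replicate could be left out. No paired analysis was possible because different mice make up each pool and the replicate number only names a library. The lower share of members in cmExoaCD11b (ratio 0.720) kept its direction in every alternative run, at 0.552 without the interferon ceiling and 0.569 without the Retnlg and Mmp8 ceiling. With the rule without Hilpda it was 0.836 (0.689 to 1.01), where the interval, which treats the cell counts as Poisson, holds 1. With 10% and 20% free RNA taken from the share of the rule genes, chosen after seeing the data, it was 0.749 and 0.761. Genes at least 2-fold higher in members of both libraries (174) numbered 110 without the 5% deepest gated neutrophils, 905 with a minimum of 1 UMI per gene and 372 with ratios divided by their median. Those lower (1148) numbered 110, 2443 and 738 under the same alternatives, 1893 and 659 with minimums of 20 and 100 UMIs, and 391 with equal weight per cell. Another alternative, chosen after seeing the data, left out cells over 10000 UMIs or past the limits for precursor, monocyte or macrophage genes. The counts were then 109 higher and 72 lower, and with equal weight per cell as well 113 and 93. Genes higher in cmExoaCD11b members (53) numbered 101 without the Retnlg and Mmp8 ceiling, 82 with membership after thinning, and 156, 26 and 3881 with minimums of 20, 100 and 1 UMIs. Those lower (176) numbered 563, 61 and 1052 at these minimums and 88 with the rule without Hilpda. The minimums change how many genes are counted, and low minimums admit ratios of a few UMIs; for the other alternatives the cause was not tested. The median ratio of the hypoxia-induced and glycolysis genes in cmExoaCD11b (2.27) was 3.84 when divided by the median of all genes. The ratio of Il1b to below-threshold neutrophils in cmExoaCD11b (2.0) reversed to 0.632 with equal weight per cell, 0.537 in cleared cells and 0.519 with both. Of the genes of the lists at least 2-fold apart in all cells of cmExoaCD11b, 45 turned direction in cleared cells, among them Dusp1 (0.574), Nfkbiz (0.629), Slc7a11 (0.652), Junb (0.735), Slc2a3 (0.812), Egr1 (0.883) and Tnf (0.967), as did 48 with both and 21 with equal weight per cell; in PBS 7, 8 and 2 did. The call of Ccl3 in PBS (3.27) ended at 1.2 with the rule without Hilpda. The ratio of Cxcl3 ranged from 1.85 to 7.04 in PBS, where its lowest value ended the call, and from 6.43 to 44.2 in cmExoaCD11b.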
